A study of Mus musculus with 22 samples.

Results

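The mitochondrial ribosomal protein genes of the mouse were followed through 4 maturation stages of bone-marrow eosinophils, with and without antibody blockade of interleukin-5 (IL-5). The genes were taken by symbol, as every Mrps or Mrpl name followed by a digit, without pseudogenes. This gave 78 genes (29 Mrps and 49 Mrpl) among the 24982 gene lines of each file. All 78 passed the filter on low counts that left 12387 genes for testing, so none was set aside.

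Mitochondria carry their own ribosome, which translates the few proteins encoded in mitochondrial DNA, all of them subunits of the oxidative phosphorylation complexes. Its RNAs come from the mitochondrial genome, whereas its proteins are encoded in the nucleus, translated in the cytosol and imported. The small subunit (most Mrps genes) reads the messenger RNA, and the large subunit (most Mrpl genes) joins amino acids and passes the new chain to the inner membrane. Some of these proteins have relatives in the bacterial ribosome and others exist only in mitochondria. Dividing marrow precursors build new mitochondria as they grow, while granulocytes leave the cell cycle before they enter the blood.

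All libraries came from wild-type C57BL6 mice that had received IL-33, a cytokine that expands eosinophils, at 400 ng into the peritoneum daily for 7 days. Together with the last of these injections the mice began a course of 3 daily injections of 400 µg of either anti-IL5 or a control isotype antibody, so the isotype group is the control and every group had IL-33. IL-5 is the main growth and survival factor of eosinophils. Stages I, II, III and IV were sorted from marrow after neutrophils, T cells, NK cells and B cells had been depleted with antibodies (Ly6G, CD90.2, CD45R and NK1.1). The gates rested on CD117 and CD55, on Siglec-F, F4/80 and CD29, and on CD200R3 and PIR-A/B, with a stated purity of at least 95%. Each stage has 3 libraries per antibody, except stage II with 2, which makes 22 libraries. Neither age nor sex is given in the labels used here. Nor do the labels say whether equal replicate numbers mark 1 animal, so p-values measure the spread between these samples, which may be technical.

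The libraries held between 7161264 and 14781250 counts in genes, with a median of 9634942. Between 25319 and 71021 of these fell on the 78 genes, or 0.232% to 0.760% of a library. Levels are given as CPM, that is, gene counts scaled to a common library size after TMM normalization, and 3 counts correspond to 0.222 to 0.411 CPM. The files hold 0 gene lines from the mitochondrial genome, so the RNAs of the mitochondrial ribosome itself were not analysed here. The stages carried eosinophil markers: 11 of the 12 listed were in the files, and their summed mean level lay between 10065 and 59074 CPM in all 8 groups. Granule genes led at stages I to III, while the eotaxin receptor Ccr3 rose from a mean of 4.88 CPM at stage I to 2718 at stage IV of the isotype group. In bulk samples such as these, fewer cells of a type and less RNA per cell cannot be told apart.

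As a sum over the 78 genes, mitochondrial ribosomal protein RNA was high at stages I and II and lower at stages III and IV. The isotype libraries of stage I held 5250, 6555 and 6199 CPM in all, and those of stage II held 6571 and 5217. At stage III the isotype sums were 3385, 3406 and 3936 CPM, and at stage IV 2835, 2770 and 2932. The ranges of stages I and II overlap each other, and both lie above every library of stages III and IV. With anti-IL5 the sums were 5125, 5057 and 5343 CPM at stage I and 5838 and 4428 at stage II. They then reached 3206, 2888 and 3032 CPM at stage III and 3019, 2596 and 2763 at stage IV. The antibody groups showed the same order of stages, with stages III and IV overlapping after anti-IL5 but not in the isotype group.

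**Figure D1:**
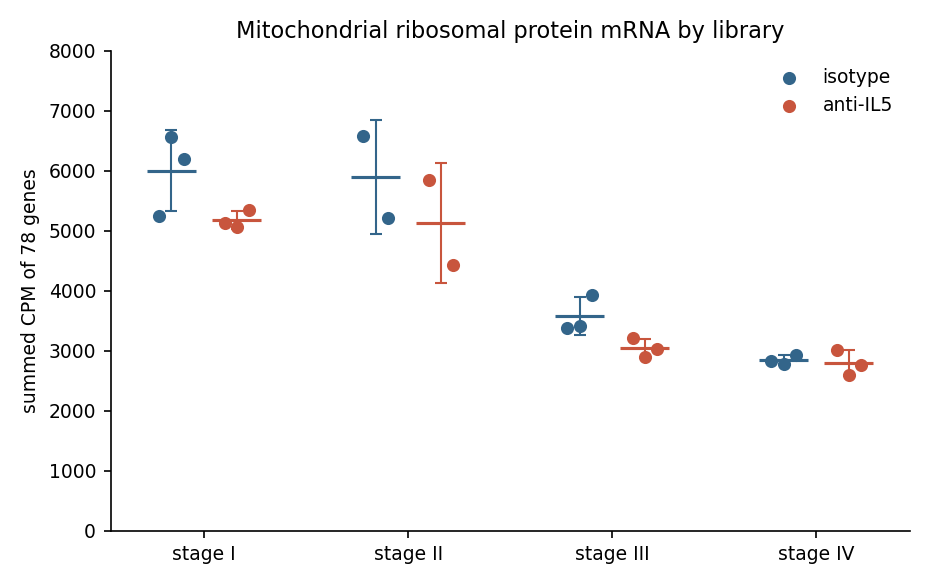
Summed level of the 78 mitochondrial ribosomal protein genes in CPM (linear axis from 0) by stage and antibody, with 1 point per library and bars for the group mean and SD. The means fall from 6001 CPM at stage I to 2846 at stage IV with isotype antibody, and from 5175 to 2793 with anti-IL5.

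The largest part of this decline lay between stages II and III. The stage III sum was 0.607 times that of stage II in the isotype group and 0.593 times after anti-IL5. From stage I to II the ratio was 0.982 and 0.992, and from stage III to IV it was 0.796 and 0.918, in the same order. Over the whole course, stage IV held 0.474 times the stage I sum with isotype antibody and 0.540 times with anti-IL5. Scaled by plain library totals instead of TMM, these last ratios were 0.356 and 0.403, and the median of all genes shifted by -0.42 on the log2 scale in both groups. Relative to the median gene, the median of the 78 genes lay at log2 -1.06 (isotype) and -0.94 (anti-IL5) with plain totals.

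Single genes were tested with edgeR's quasi-likelihood test, with p-values adjusted by Benjamini-Hochberg over all 12387 genes and a threshold of 0.05, and each ± beside a log2 fold change is its standard error. From stage II to III of the isotype group, 54 of the 78 genes fell and 0 rose. Of all genes tested, 18% fell in that comparison. The median log2 fold change was -0.76 for the 78 genes and 0.00 for all genes. After anti-IL5, 53 of the 78 fell and 0 rose over the same step, where 19.7% of all genes fell. The medians were -0.78 for the 78 genes and 0.02 for all. The lists shared 48 genes, which is 88.9% of the isotype list and 90.6% of the anti-IL5 list. These counts leaned on stage II, which has 2 libraries per group: without replicate 1 of that stage 29 genes passed in the isotype group, and 31 passed after anti-IL5.

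Between stages I and II little passed the test. With isotype antibody 1 of the 78 genes fell, against 3.25% of all genes, and 0 rose. It was Mrpl38, a large-subunit protein found only in mitochondria, with 49.7, 57.4 and 50.9 CPM at stage I and 32 and 28.7 at stage II (log2 -0.79 ± 0.24, edgeR adjusted p = 0.0328). Next by p-value were Mrpl24 (log2 -0.49 ± 0.16, edgeR adjusted p = 0.0516) and Mrpl16 (log2 -0.70 ± 0.23, edgeR adjusted p = 0.0573), neither of which passed. Both passed with RLE size factors, with library totals, with DESeq2 and with limma-voom (adjusted p of 0.0343, 0.0153, 0.00243 and 0.0397 for Mrpl24 and 0.0416, 0.0308, 0.0116 and 0.0278 for Mrpl16). After anti-IL5 4 genes (5.13%) fell, a share near the 5.17% of all genes, and 0 rose. These were Mrps28, Mrps18b, Mrpl16 and Mrpl24. Without the filter on low counts the call of Mrpl38 was lost (edgeR adjusted p = 0.0564), and so were those of Mrps18b, Mrpl16 and Mrpl24 after anti-IL5 (edgeR adjusted p = 0.0696, 0.102 and 0.0656). The counts at this step rested on single libraries. With isotype antibody 0 passed without replicate 2 or 3 of stage I or replicate 1 of stage II. With replicate 1 of stage I or anti-IL5 replicate 1 of stage III left out 2 fell, and without isotype replicate 2 of stage II 2 rose and 0 fell. After anti-IL5 1 fell without replicate 3 of stage I or 1 of stage II, 1 rose and 0 fell without replicate 2 of stage II, and 2 fell without replicate 2 of stage I or isotype replicate 1 of stage I.

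At the last step, from stage III to IV, 30 of the 78 genes fell and 0 rose in the isotype group, where 18.8% of all genes fell. Without replicate 3 of isotype stage III the count was 19. After anti-IL5, 10 genes (12.8%) fell, a share near the 13.4% of all genes, and 4 (5.13%) rose, against 10.4%. All 10 were among the 30 of the isotype group, or 33.3% of that list. Single libraries moved this anti-IL5 count too: 8 genes of either direction passed without replicate 1 of stage III, and 9, 7 and 8 without replicates 1, 2 and 3 of stage IV. The difference between the antibody groups over this step was tested gene by gene and is given further on.

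From first to last stage, 70 genes fell and 1 rose with isotype antibody, against 33.9% of all genes falling and 32.3% rising. With anti-IL5 62 fell and 1 rose, against 32.8% and 30.7%. All 62 were among the 70. The median log2 fold change of the 78 genes was -1.11 with isotype antibody and -0.99 with anti-IL5, beside -0.04 and -0.06 for all genes. The stage of highest mean level was I for 47 genes, II for 29, III for 0 and IV for 2 in the isotype group. After anti-IL5 these numbers were 44, 31, 1 and 2. The ratio of a gene's highest to its lowest stage mean ran from 1.06 to 31.6 with a median of 2.33 in the isotype group, and from 1.10 to 20.6 with a median of 2.17 after anti-IL5.

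**Figure D2:**
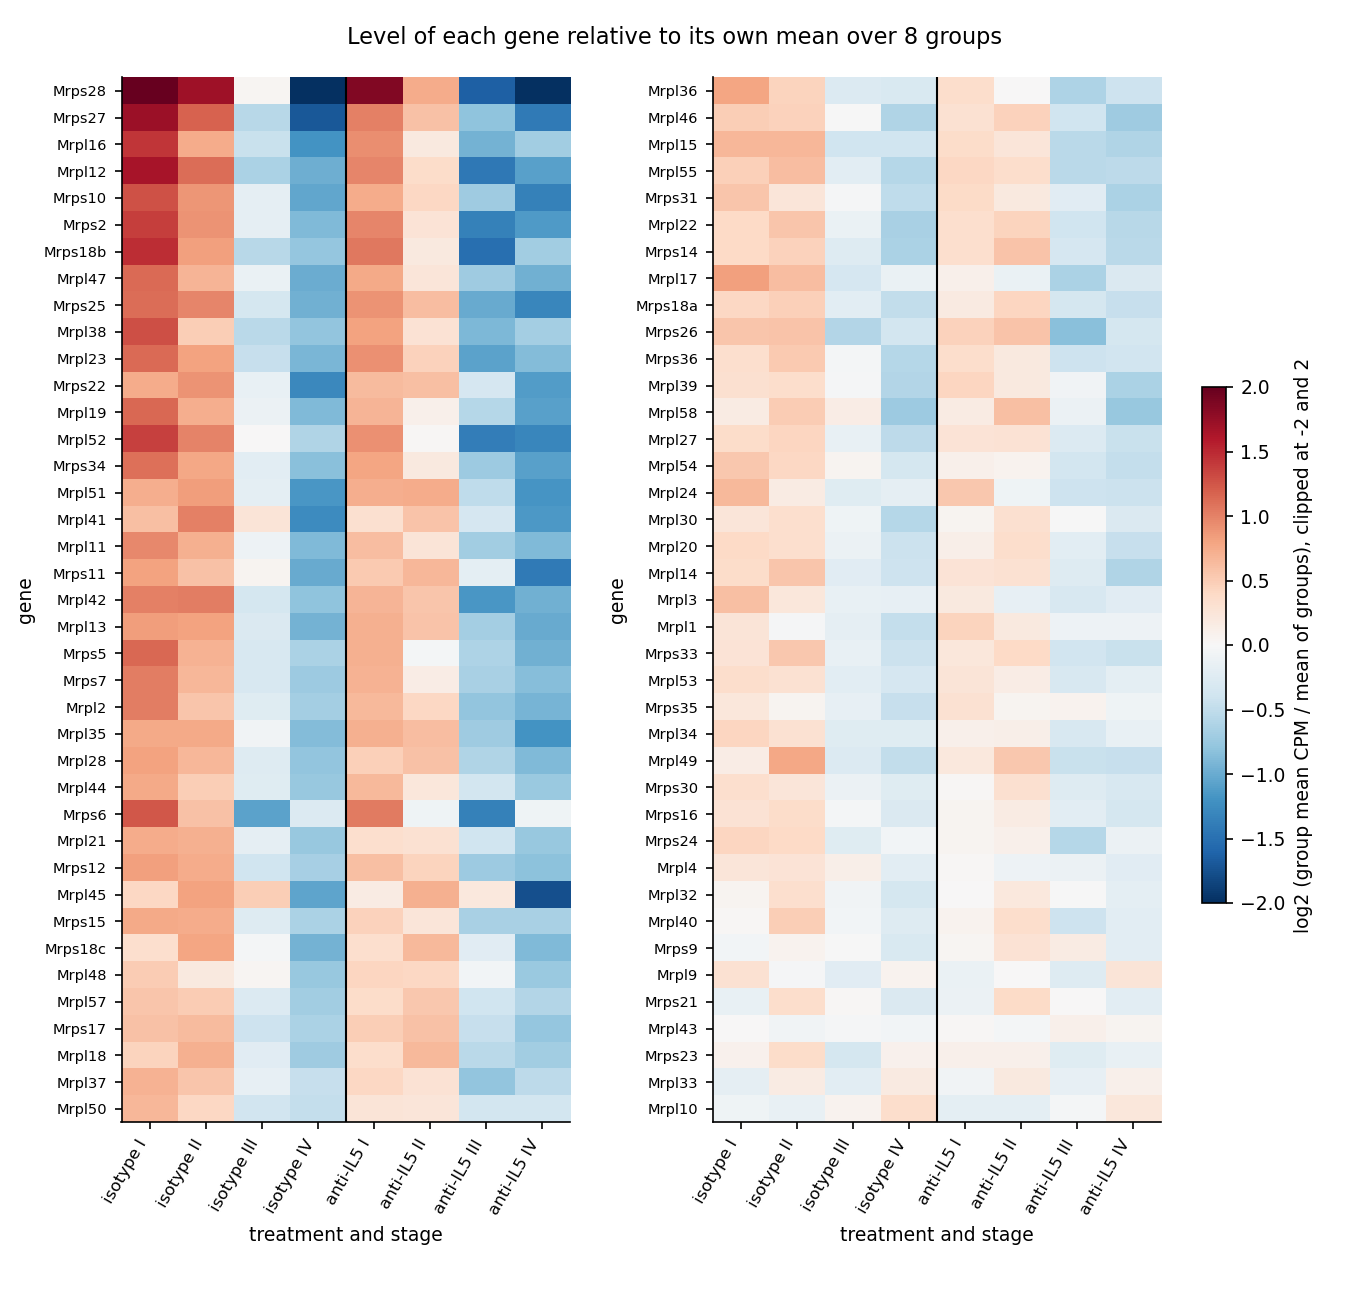
Mean level of each of the 78 genes (rows, split over a pair of panels and ordered by the isotype change from stage I to IV) in each of the 8 groups (columns), as log2 group mean CPM minus the gene's own mean over the groups, with colours clipped at -2 and 2. Most rows are above their mean at stages I and II and below it at stages III and IV in both antibody groups, and a few rows such as Mrpl10 run the other way on this TMM scale.

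Mrps28, of the small subunit, had the largest fall from stage I to IV among the 78 genes in both antibody groups. Its protein is a relative of bacterial ribosomal protein S1. No other annotated gene shares exons with the Mrps28 gene (chr3:8802146-8923918, minus strand, GRCm38). In the isotype group its level was 88.2, 139 and 145 CPM at stage I, 56 and 95.3 at stage II, 12.9, 21.6 and 37.6 at stage III and 3.49, 3.79 and 4.49 at stage IV. After anti-IL5 it was 83.7, 84 and 86.5 CPM at stage I, 42.8 and 35.9 at stage II, 8.53, 7.40 and 6.77 at stage III and 5.49, 3.82 and 3.05 at stage IV. The libraries of neighbouring stages do not overlap, apart from stages I and II of the isotype group. The change from stage I to IV was log2 -4.98 ± 0.34, edgeR adjusted p = 4.66e-11 in the isotype group and log2 -4.37 ± 0.34, edgeR adjusted p = 3.5e-10 after anti-IL5. In the isotype group it fell at both of the last steps (log2 -1.65 ± 0.31 and -2.62 ± 0.32, edgeR adjusted p = 0.00031 and 1.6e-06). After anti-IL5 it fell from stage I to II (log2 -1.11 ± 0.33, edgeR adjusted p = 0.0276) and again from II to III (log2 -2.38 ± 0.33, edgeR adjusted p = 7.17e-06), and the last step did not pass (log2 -0.89 ± 0.33, edgeR adjusted p = 0.0538).

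Mrps27, a small-subunit protein found only in mitochondria that can bind RNA, was next in size over the whole course. Its isotype libraries held 37.9, 46.1 and 47.5 CPM at stage I and 3.69, 7.96 and 15.6 at stage III, ending at 3.15, 4.24 and 5.06 at stage IV (log2 -3.40 ± 0.39, edgeR adjusted p = 1.1e-07). The stage III libraries were spread widely but lay below all of stage I. After anti-IL5 the change from stage I to IV was log2 -2.42 ± 0.38, edgeR adjusted p = 9.62e-06. Exons of 6430562O15Rik cover 24.2% of the exon length of Mrps27, and the kit does not mark strand, so its reads may be shared.

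Mrps18b and Mrps2 both sit in the small subunit, Mrps18b as 1 of 3 mitochondrial relatives of bacterial protein S18 and Mrps2 as the relative of bacterial S2. Mrps18b (chr17:35910379-35916389, minus strand) was at 49.5, 51.3 and 48.1 CPM at isotype stage I and at 35.6 and 27.9 at stage II, then at 9.42, 11.2 and 15.8 at stage III and 9.95, 9.39 and 12 at stage IV. Its stages III and IV overlap, and the fall lay before them (log2 -1.38 ± 0.26, edgeR adjusted p = 0.000264 from stage II to III). Mrps2 (chr2:28468066-28471178, plus strand) was at 44.5, 40.2 and 41.8 CPM at isotype stage I and at 10.3, 7.73 and 8.43 at stage IV, without overlap (log2 -2.26 ± 0.30, edgeR adjusted p = 9.43e-07). Exons of Gm16279 cover 30.5% of those of Mrps18b, and none overlap Mrps2.

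Several other small-subunit genes fell from stage I to IV, and some did not pass. Mrps12, a relative of a bacterial protein, at the decoding centre, fell from stage I to IV, with log2 -1.48 ± 0.19 in the isotype group and -1.42 ± 0.19 after anti-IL5. Mrps5 and Mrps7, which line the path of the messenger RNA, fell in the isotype group (log2 -1.77 ± 0.22 and -1.76 ± 0.18, edgeR adjusted p = 4.2e-07 and 1.99e-08). Mrps10 and Mrps16, the latter an early assembly protein in bacteria, fell too (log2 -2.32 ± 0.23 and -0.57 ± 0.16, edgeR adjusted p = 1.32e-08 and 0.00348). Mrps9 and Mrps21, which also have bacterial relatives, did not pass in the isotype group (log2 -0.26 ± 0.16 and -0.15 ± 0.19, edgeR adjusted p = 0.168 and 0.48). Mrps35, found only in mitochondria, fell in the isotype group (log2 -0.68 ± 0.18, edgeR adjusted p = 0.00212) and did not pass after anti-IL5 (log2 -0.38 ± 0.18, edgeR adjusted p = 0.0661).

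Mrps22 and Mrps11 kept falling to the end. Mrps22, found only in mitochondria, held 22.7 and 21.7 CPM at isotype stage II, 11.5, 11.7 and 9.26 at stage III and 5.44, 4.54 and 4.77 at stage IV, with no overlap between these stages. Its last step was log2 -1.13 ± 0.24, edgeR adjusted p = 0.000878 in the isotype group and log2 -0.78 ± 0.24, edgeR adjusted p = 0.0215 after anti-IL5. Mrps11, beside the exit of the messenger RNA, went from 27.1, 22.7 and 35.2 CPM at isotype stage III to 10.5, 15.3 and 14.8 at stage IV (log2 -1.07 ± 0.21, edgeR adjusted p = 0.000349). After anti-IL5 the same step took it from 26.5, 22.9 and 21.7 to 10.6, 10.7 and 9.43 CPM (log2 -1.21 ± 0.21, edgeR adjusted p = 0.000177). Mrps11 shares exon sequence with its neighbour Mrpl46, so these 2 genes may share reads.

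In the large subunit, Mrpl12 forms the flexible stalk on which translation factors dock, and it has also been found bound to mitochondrial RNA polymerase. The gene lies at chr11:120484613-120489065 on the plus strand. Its isotype libraries held 129, 161 and 134 CPM at stage I, 104 and 91.2 at stage II, 28.6, 22.6 and 36.7 at stage III and 25.9, 20.6 and 22.7 at stage IV. Stages III and IV overlap and lie far below stage II (log2 -1.74 ± 0.21, edgeR adjusted p = 3.62e-06). Mrpl11, at the stalk base, fell as well from stage I to IV (log2 -1.84 ± 0.21, edgeR adjusted p = 9.01e-08). Exons of Gm16755 cover 13.1% of those of Mrpl12.

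Mrpl10, the stalk protein that anchors Mrpl12, went the other way. It held 41.8, 44.2 and 52.7 CPM at isotype stage I and 59.96, 63.8 and 65.4 at stage IV. After anti-IL5 it held 34.2, 43.9 and 51.4 CPM at stage I and 55.3, 61.7 and 57 at stage IV. All stage IV libraries lie above all stage I libraries of the same antibody. Mrpl10 was the only 1 of the 78 genes that rose from stage I to IV (log2 0.45 ± 0.16, edgeR adjusted p = 0.0202 with isotype and log2 0.43 ± 0.16, edgeR adjusted p = 0.0281 with anti-IL5). This call depended on the scaling: with plain library totals the log2 values were 0.03 and 0.00, and with DESeq2 the adjusted p was 0.0567 and 0.0588. It was also lost without isotype replicate 1 or 2 of stage I or 3 of stage IV (highest edgeR adjusted p = 0.0785), and without anti-IL5 replicate 1 or 2 of stage I or 2 of stage IV (0.156). Exons of Gm11574 cover 14.1% of those of Mrpl10.

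Of the proteins around the exit of the peptide tunnel, Mrpl23 and Mrpl24 are relatives of bacterial exit-rim proteins. Both fell from stage I to IV in the isotype group (log2 -2.05 ± 0.21 and -0.82 ± 0.14, edgeR adjusted p = 2.22e-08 and 2.54e-05). Mrpl24 held 53.4, 55.6 and 51.3 CPM at stage I, 40.1 and 36.2 at stage II and 28.4, 28.7 and 29.5 at stage III, with no overlap between these stages. Its step from stage I to II did not pass (edgeR adjusted p = 0.0516). Mrpl44, which lies beside the exit and belongs to the RNase III family, fell from stage I to IV (log2 -1.51 ± 0.18, edgeR adjusted p = 2.63e-07).

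Mrpl45, which holds the exit of the human ribosome against the inner membrane, passed the test at the last step and not before. It lies at chr11:97315716-97329920 on the plus strand. Its isotype libraries held 64.8, 76 and 70.6 CPM at stage I, 120.0 and 65.1 at stage II, 69.7, 76.2 and 77.9 at stage III and 24.6, 25.3 and 26.8 at stage IV. The first 3 stages overlap, and stage IV lies below them all. After anti-IL5 stage III held 71.6, 48.2 and 64.5 CPM and stage IV 22.3, 9.87 and 14.7. The step from stage III to IV was log2 -1.55 ± 0.24, edgeR adjusted p = 3.31e-05 in the isotype group and log2 -1.98 ± 0.25, edgeR adjusted p = 3.7e-06 after anti-IL5, whereas the step before did not pass in either (log2 -0.31 ± 0.26, edgeR adjusted p = 0.372 and log2 -0.50 ± 0.26, edgeR adjusted p = 0.135). With isotype antibody 7 genes passed at the last step and not at the one before, namely Mrpl30, Mrpl39, Mrpl45, Mrpl46, Mrpl48, Mrpl58 and Mrps11. Another 23 fell at both steps, 31 only from stage II to III, and 17 at neither. Of all genes 18% fell from stage II to III and 18.8% from stage III to IV, and their split is not given here. No test compares the steps, so passing at 1 and not at the other does not show a different course.

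Mrpl41 and Mrpl51, both found only in mitochondria, had their highest mean at stage II and fell at both later steps. Their rise from stage I to II did not pass in either antibody group. For Mrpl51 the isotype means were 163 CPM at stage I and 176 at stage II. Mrpl41 held 152, 182 and 173 CPM at isotype stage I, 263 and 187 at stage II, 123, 120.3 and 157 at stage III and 42, 42.9 and 55.6 at stage IV. Stage II was highest and stage IV lowest, with no overlap between the last 3 stages. The last step was log2 -1.51 ± 0.20, edgeR adjusted p = 3.2e-06 in the isotype group and log2 -0.81 ± 0.19, edgeR adjusted p = 0.0036 after anti-IL5. For Mrpl51 it was log2 -0.97 ± 0.15, edgeR adjusted p = 2.66e-05 and log2 -0.68 ± 0.15, edgeR adjusted p = 0.00173. Per kilobase of exon, Mrpl41 (136 CPM per kb), Mrps21 (130) and Mrpl18 (109) had the highest mean levels over the 22 libraries. Lowest were Mrpl47 (2.46), Mrps6 (2.83) and Mrps5 (2.91), around a median of 18.2.

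The 4 genes that rose from stage III to IV after anti-IL5 were Mrps6, Mrps18b, Mrps26 and Mrps24, all of the small subunit. Mrps24 held 44.4, 39.7 and 47.7 CPM at stage III and 67.5, 56.8 and 56 at stage IV of the anti-IL5 group (log2 0.45 ± 0.16, edgeR adjusted p = 0.0414). In the isotype group its libraries of these stages overlap, at 53.3, 47.6 and 64.5 CPM at stage III and 60.6, 61.3 and 65.6 at stage IV. The change was log2 0.48 ± 0.17, edgeR adjusted p = 0.047 for Mrps26 and log2 0.80 ± 0.24, edgeR adjusted p = 0.0201 for Mrps18b. Mrps6 stayed under 10 CPM (1.18, 1.54 and 1.60 at stage III and 3.94, 2.31 and 4.04 at stage IV, log2 1.24 ± 0.37, edgeR adjusted p = 0.0163). The other calls leaned on single libraries. The Mrps18b call was lost without anti-IL5 replicate 2 or 3 of stage III or 1 or 3 of stage IV (edgeR adjusted p up to 0.115). That of Mrps24 was lost without anti-IL5 replicate 1 or 2 of stage III or any of stage IV, or isotype replicate 1 of stage I (0.156), and that of Mrps26 without most libraries in turn (0.149). With limma-voom the calls of Mrps18b, Mrps26 and Mrps24 were lost (adjusted p = 0.0813, 0.0586 and 0.0505), and without the filter on low counts those of Mrps26 and Mrps24 (edgeR adjusted p = 0.073 and 0.0828). Exons of Urgcp cover 15.4% of those of Mrps24.

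A small group showed no called change in any comparison made. These were Mrps9, Mrps21, Mrpl9, Mrpl33 and Mrpl43. Mrpl33, the large-subunit relative of a small bacterial protein, held 201, 245 and 257 CPM at isotype stage I and 300.5, 272 and 326 at stage IV (log2 0.35 ± 0.17, edgeR adjusted p = 0.0753). Mrpl43 held 19.7, 20.7 and 23.4 CPM at stage I and 21.6, 20.1 and 19.4 at stage IV (log2 -0.06 ± 0.17, edgeR adjusted p = 0.765), and exons of Twnk on the other strand cover 33.4% of its own. Mrps9 held 34.3, 39.7 and 41.6 CPM at stage I and 31.7, 34.5 and 30.2 at stage IV (log2 -0.26 ± 0.16, edgeR adjusted p = 0.168). A p-value above the threshold does not show that a gene was level, and changes larger than 1 standard error could be missed.

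Few of the 78 genes were called lower after anti-IL5 at any single stage. At stage I 2 of them (2.56%) were lower than with isotype antibody and 0 higher, a share near the 1.82% of all genes lower. At stage II 0 passed in edgeR, against 1.19% of all genes lower, with 14 lower at an unadjusted p under 0.05 and 1 called by DESeq2 or without isotype replicate 2 of that stage. At stage III 7 (8.97%) were lower and 0 higher, against 5.05% of all genes lower. At stage IV 0 passed in edgeR or DESeq2, against 0.864% of all genes lower, with 1 gene up and 1 down at an unadjusted p under 0.05, and 1 called lower without anti-IL5 replicate 1. The median log2 fold change of the 78 genes was -0.22, -0.23, -0.26 and -0.02 at stages I to IV, and lay between -0.01 and 0.02 for all genes. Estimates were below 0 for 66, 63, 69 and 41 of the 78 genes.

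**Figure D3:**
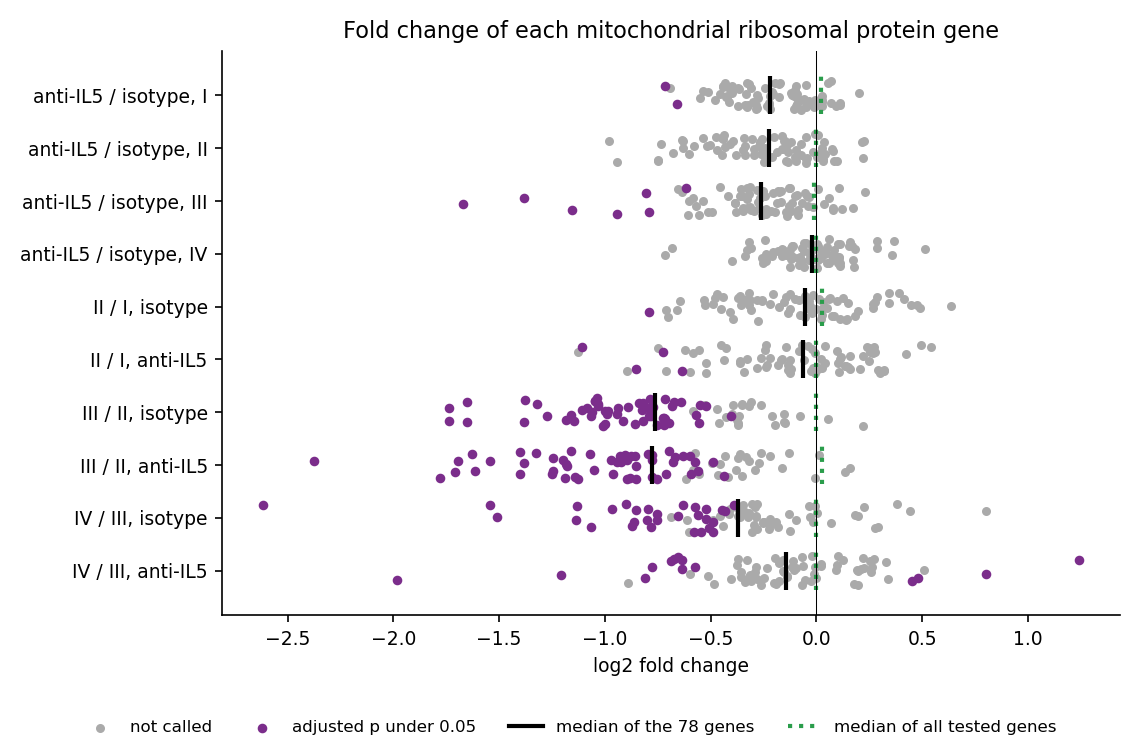
Log2 fold change of the 78 genes, 1 point per gene, for anti-IL5 against isotype antibody at each stage and for each maturation step per antibody (rows), with genes past the edgeR threshold in purple and lines at the median of the 78 genes (black) and of all genes tested (green dots). The anti-IL5 medians are -0.22, -0.23 and -0.26 at stages I to III and -0.02 at stage IV, and the medians of the step from stage II to III are -0.76 and -0.78.

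Averaged over the 4 stages, 21 of the 78 genes were lower after anti-IL5 and 0 higher, where 10.3% of all genes were lower. Without anti-IL5 replicate 2 of stage II the count was 14, and the calls of Mrps7 and Mrpl11 were among those lost. The median was -0.17. These 21 comprise 9 genes of the small subunit and 12 of the large. By size they were led by Mrpl52 (log2 -0.87 ± 0.18), Mrps28 (-0.78 ± 0.16), Mrps2 (-0.61 ± 0.16), Mrpl12 (-0.58 ± 0.10), Mrpl17 (-0.48 ± 0.09) and Mrps18b (-0.48 ± 0.12). Mrps10, Mrps5, Mrpl42, Mrpl19 and Mrps34 followed, between -0.46 and -0.41. The other 10 were Mrpl11, Mrpl36, Mrpl54, Mrps7, Mrpl37, Mrps15, Mrpl41, Mrpl15, Mrps24 and Mrpl21, between -0.34 and -0.26. All 21 were also among the 70 genes that fell from stage I to IV in the isotype group, a comparison that shares its libraries with this one.

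At stage I the called genes were Mrpl17 and Mrpl12. Mrpl17, a large-subunit protein whose bacterial relative sits near the tunnel exit (chr7:105803206-105811099, minus strand), held 133, 159 and 134 CPM with isotype antibody and 92.2, 78.8 and 88.3 with anti-IL5. The ranges do not overlap (log2 -0.71 ± 0.16, edgeR adjusted p = 0.0126). Mrpl12 held 129, 161 and 134 CPM against 96.6, 83.7 and 87.7, again without overlap (log2 -0.66 ± 0.19, edgeR adjusted p = 0.0472). Next was Mrpl16, a relative of a bacterial protein near the catalytic centre, which did not pass (log2 -0.51 ± 0.20, edgeR adjusted p = 0.17). The Mrpl17 call was lost without replicate 2 of either antibody at stage I (edgeR adjusted p up to 0.0941), and then neither gene passed. The Mrpl12 call was lost in 15 of the 22 fits that left out 1 library, with an edgeR adjusted p of up to 0.226, and also without the filter on low counts (edgeR adjusted p = 0.052).

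At stage II the smallest p-values belonged to Mrpl17, Mrpl12 and Mrps5. Mrpl17 held 154 and 92.9 CPM with isotype antibody and 82 and 64.6 with anti-IL5 (log2 -0.75 ± 0.20, edgeR adjusted p = 0.0557). Mrpl12 held 104 and 91.2 CPM against 69.6 and 46.6 (log2 -0.75 ± 0.23, edgeR adjusted p = 0.117). For Mrps5 the value was log2 -0.73 ± 0.27, edgeR adjusted p = 0.201. With 2 libraries per group the ranges of Mrpl17 and Mrpl12 did not overlap, yet none of these passed. Mrpl17 did pass with DESeq2 (adjusted p = 0.0205) and with library totals (edgeR adjusted p = 0.0275).

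Of the 4 stages, stage III held the most called genes. Mrps28 held 12.9, 21.6 and 37.6 CPM with isotype antibody against 8.53, 7.40 and 6.77 with anti-IL5, so its isotype mean was 3.18 times higher (log2 -1.67 ± 0.30, edgeR adjusted p = 0.00209). Mrps2 held 15.4, 12.3 and 15 against 4.90, 7.59 and 6.59 CPM (log2 -1.16 ± 0.30, edgeR adjusted p = 0.0243). Mrps18b held 9.42, 11.2 and 15.8 against 7.06, 6.15 and 5.79 CPM (log2 -0.94 ± 0.24, edgeR adjusted p = 0.0236). In all 3 small-subunit genes every anti-IL5 library lay below every isotype library.

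The 4 large-subunit genes called at stage III were Mrpl12, Mrpl37, Mrpl42 and Mrpl52. Mrpl42, found only in mitochondria (chr10:95480805-95501940, minus strand), held 50.6, 60.4 and 56.6 CPM with isotype antibody and 30.7, 34 and 31.2 with anti-IL5 (log2 -0.81 ± 0.17, edgeR adjusted p = 0.00643). Mrpl37 held 55.4, 54.3 and 63.4 CPM against 37.2, 38.5 and 37.3 (log2 -0.61 ± 0.14, edgeR adjusted p = 0.0102), and Mrpl12 held 28.6, 22.6 and 36.7 against 15.8, 14.6 and 20.2 (log2 -0.79 ± 0.20, edgeR adjusted p = 0.0176). Again no ranges overlap. Mrpl52 was low, with 6.87, 4.55 and 7.54 against 2.75, 1.63 and 2.85 CPM (log2 -1.38 ± 0.35, edgeR adjusted p = 0.0187). Without isotype replicate 3 of stage III 2 genes passed, and without anti-IL5 replicate 2 or 3 of that stage 4 passed. The calls of Mrps28 and Mrpl42 were kept in all 22 fits that left out 1 library. Without isotype replicate 3 of stage III the calls of Mrpl12, Mrpl37, Mrpl52, Mrps18b and Mrps2 were all lost. Among anti-IL5 libraries of stage III, Mrpl12 lost its call without replicate 1 or 2, Mrpl37 without 3, Mrps18b without 2 or 3 and Mrps2 without 1 or 3. Mrps2 also lost it without isotype replicate 1. The highest edgeR adjusted p values in these fits were 0.12, 0.0583, 0.151 and 0.0877, in the order Mrpl12, Mrpl37, Mrps18b and Mrps2. With limma-voom the calls of Mrps18b and Mrpl12 were lost (adjusted p = 0.0747 and 0.055).

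At stage IV the groups were close. Mrps28 held 3.49, 3.79 and 4.49 CPM with isotype antibody and 5.49, 3.82 and 3.05 with anti-IL5, and Mrpl12 held 25.9, 20.6 and 22.7 against 22.5, 18.4 and 23.1, with overlap in both. The smallest p-values belonged to Mrpl45 (log2 -0.72 ± 0.24, edgeR adjusted p = 0.249), Mrpl16 (log2 0.51 ± 0.21, edgeR adjusted p = 0.428) and Mrps35 (log2 0.37 ± 0.18, edgeR adjusted p = 0.55), none of which passed.

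**Figure D4:**
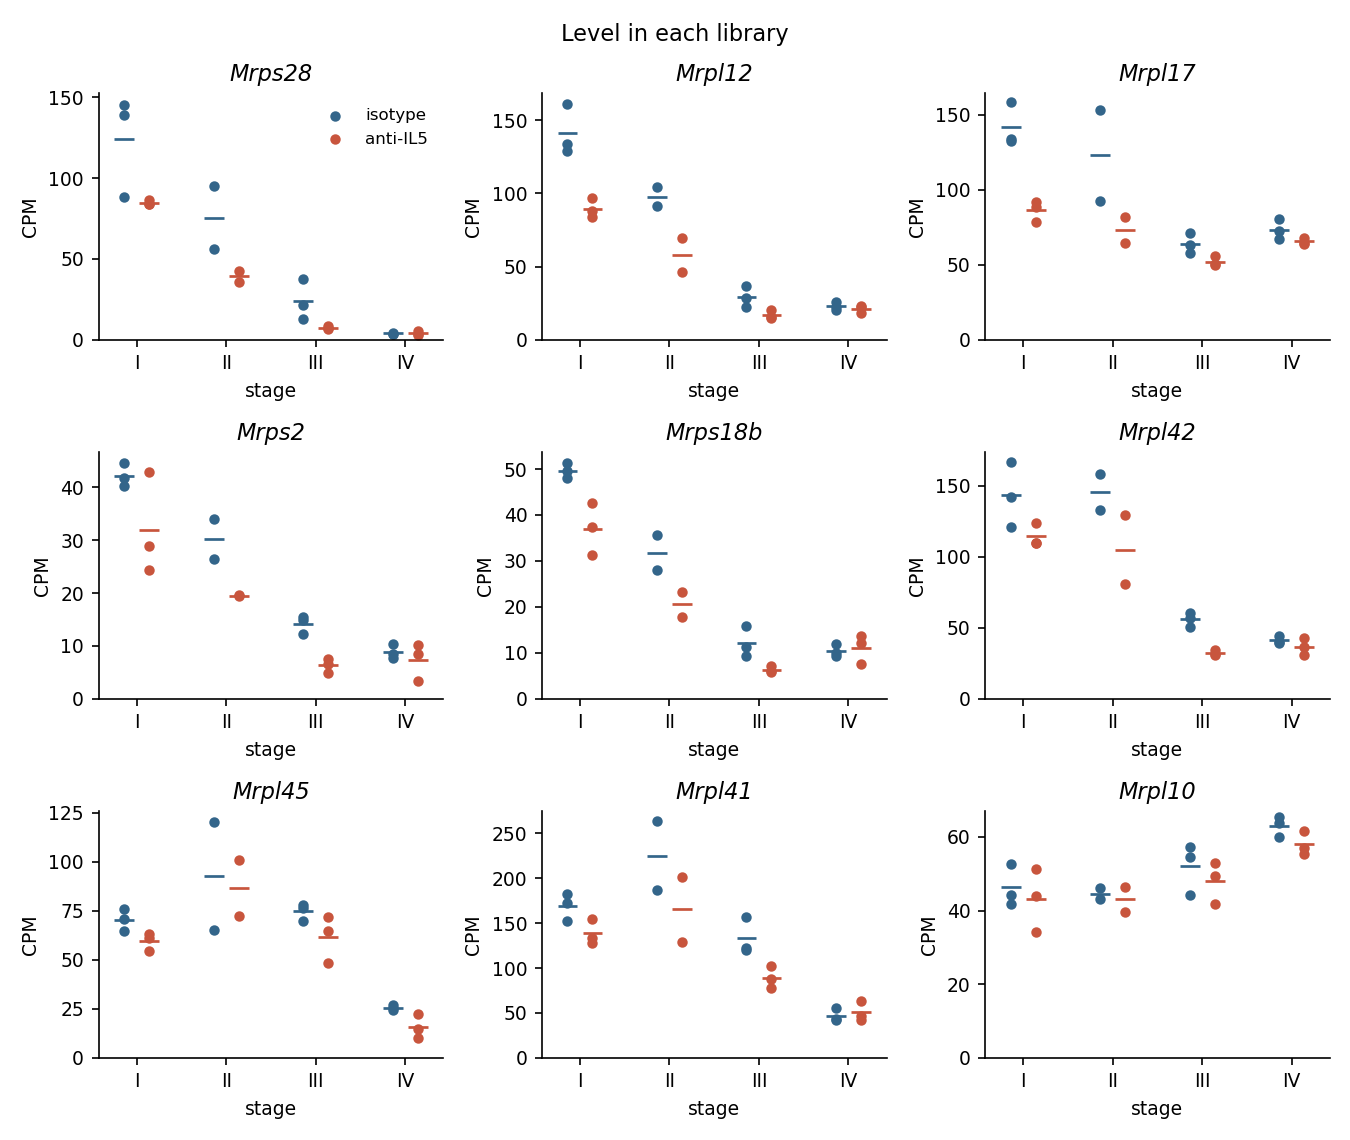
CPM of 9 named genes by stage, with 1 point per library, a bar at each group mean and separate colours for the isotype and anti-IL5 groups, on linear axes that start at 0. Mrps28, Mrpl12, Mrps18b and Mrps2 lie lower with anti-IL5 at stage III, Mrpl45 drops between stages III and IV in both groups, and Mrpl10 is highest at stage IV on this TMM scale.

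Whether the anti-IL5 effect changed between stages was tested as a difference of effects. Between stages I and II and between stages II and III, 0 of the 78 genes passed in edgeR or DESeq2, against 0% of all genes in either comparison, with 0 at an unadjusted p under 0.05. Between stages III and IV 0 passed in edgeR, against 0.638% of all genes in either direction, with 10 genes at an unadjusted p under 0.05 and 1 called by DESeq2 or without isotype replicate 1 of stage III. In all 10 the effect was more positive at stage IV, and the median difference over the 78 genes was 0.23 on the log2 scale. Mrps28 had the smallest p-value of the 78 (log2 1.73 ± 0.46, edgeR adjusted p = 0.095), and it was the gene that DESeq2 called (adjusted p = 0.0193). Next were Mrpl16 (log2 1.01 ± 0.30, edgeR adjusted p = 0.146) and Mrps18b (log2 1.02 ± 0.34, edgeR adjusted p = 0.214). This difference is the same quantity as the difference between antibody groups over the step from stage III to IV, so the 30 and 10 genes that fell there are not shown to differ.

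By subunit, 20 of 26 genes of the small subunit and 33 of 51 of the large fell from stage II to III in the isotype group, with medians of -0.996 and -0.722. Here Mrps18a and Mrps30 were counted with the large subunit, where their proteins sit, and Mrps36, now known as a component of a dehydrogenase complex, with neither. From stage I to IV 23 of 26 and 46 of 51 fell. By origin, 15 of 46 genes with a bacterial relative and 6 of 31 found only in mitochondria were lower after anti-IL5 over the mean of stages. From stage II to III the counts were 32 and 21. Among all genes tested, 18% fell from stage II to III and 33.9% from stage I to IV of the isotype group. Over the mean of stages 10.3% were lower after anti-IL5. These classes were set after the values had been seen, and no test compares them.

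The genes lie on 17 chromosomes and 33 of them share exon sequence with another annotated gene (GENCODE, GRCm38). Their promoters were read from RefSeq (GRCm38.p6) where an entry matched by symbol, which was the case for 69 of the 78. Upstream sequence is printed 5′ to 3′ in the direction of transcription. It is given for Mrpl12 and Mrpl17, both called at stage I, and for Mrpl45, called at the last step and not the one before. Capitals mark matches to the NRF1 motif (GCGC, any 2 bases, GCGC) or the ETS motif CCGGAAG, searched on both strands. The windows are chr11:120484387-120484612 (plus strand), chr7:105811100-105811337 (minus strand) and chr11:97315466-97315715 (plus strand), and end where the annotated gene begins.
Mrpl12: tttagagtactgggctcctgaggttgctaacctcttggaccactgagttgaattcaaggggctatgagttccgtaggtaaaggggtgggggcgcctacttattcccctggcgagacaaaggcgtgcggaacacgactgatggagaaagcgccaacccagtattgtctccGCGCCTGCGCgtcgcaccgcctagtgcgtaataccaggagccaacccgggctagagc
Mrpl17: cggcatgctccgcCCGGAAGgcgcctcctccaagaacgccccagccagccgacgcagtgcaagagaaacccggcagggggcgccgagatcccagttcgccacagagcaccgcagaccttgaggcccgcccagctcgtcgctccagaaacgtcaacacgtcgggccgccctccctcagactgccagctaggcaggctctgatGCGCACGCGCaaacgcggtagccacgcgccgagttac
Mrpl45: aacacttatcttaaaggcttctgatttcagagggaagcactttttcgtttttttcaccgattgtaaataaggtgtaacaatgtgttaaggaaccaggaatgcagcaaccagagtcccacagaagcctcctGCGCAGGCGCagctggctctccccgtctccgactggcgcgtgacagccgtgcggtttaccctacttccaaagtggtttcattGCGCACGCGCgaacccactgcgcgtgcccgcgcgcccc

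Nuclear respiratory factor 1 (NRF1) and the ETS factor GABPA are textbook activators of nuclear genes for mitochondria. In the 250 bases before the gene start, 14.5% of the 69 promoters (10) held the NRF1 motif, against 6.94% of 17491 protein-coding promoters and 5.09% of all 27025. The ETS motif was in 24.6% (17), against 9.12% and 7.05%. The E-box CACGTG, the letters bound by MYC, was in 7.25% (5), against 6.64% and 6.05%. At least 1 of the 3 motifs was in 43.5% of the 69 promoters, against 20.4% and 16.5%.

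Genes with and without these motifs both fell. From stage I to IV of the isotype group, 27 of the 30 genes with any of the motifs fell, with a median log2 fold change of -0.93. Of the 39 genes with none, 34 fell, with a median of -1.27. Over the mean of stages 5 of the 30 and 11 of the 39 were lower after anti-IL5. The shares of all genes were 33.9% for the fall from stage I to IV and 10.3% for the mean of stages. A match is a string of letters and shows no binding, and these counts were not tested.

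The RNAs of those factors took different courses. Myc, a growth regulator, fell from a mean of 326 CPM at stage I to 9.44 at stage IV of the isotype group (log2 -5.11 ± 0.39, edgeR adjusted p = 3.03e-10). It was lower after anti-IL5 at stage II (log2 -2.28 ± 0.42, edgeR adjusted p = 0.00972), at means of 27.7 and 134 CPM, and at stage III (log2 -2.56 ± 0.40, edgeR adjusted p = 0.000594), at means of 3.23 and 18.97 CPM. Pprc1, a coactivator of NRF1, fell from stage I to IV (log2 -2.66 ± 0.45, edgeR adjusted p = 2.45e-05). It too was lower after anti-IL5 at stages II and III (log2 -2.53 ± 0.57 and -1.86 ± 0.50, edgeR adjusted p = 0.0247 and 0.027). Nrf1, Gabpa, Esrra and Yy1 rose over the same course, with log2 values of 1.25 ± 0.14, 0.95 ± 0.19, 1.93 ± 0.24 and 0.69 ± 0.24. Ppargc1b was at 0 counts in all isotype libraries of stage IV and at a mean of 5.71 CPM at stage I. Gabpb1 and Gabpb2 did not pass (log2 0.21 ± 0.18 and -0.11 ± 0.24).

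Genes listed as mitochondrial ribosomal subunits under other symbols mostly moved likewise. Of 6 tested, 5 fell from stage I to IV in the isotype group and 4 after anti-IL5, against 33.9% and 32.8% of all genes. The 5 include 2310061I04Rik, listed here without a check that its protein belongs to the ribosome. The isotype log2 values were -1.93 ± 0.19 for Gadd45gip1, -1.81 ± 0.19 for Chchd1, -1.25 ± 0.20 for Ptcd3 and -0.52 ± 0.15 for Dap3, while Aurkaip1 did not pass (-0.05 ± 0.16). Dap3 and Gadd45gip1 were also lower after anti-IL5 over the mean of stages (log2 -0.24 ± 0.08 and -0.41 ± 0.10).

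Other parts of the mitochondrial translation machinery fell from stage I to IV with fewer calls from stage II to III. Of 13 translation factors, 10 fell and 1 rose from stage I to IV of the isotype group, while 2 fell from stage II to III. Tsfm, the exchange factor of elongation factor Tu, fell (log2 -2.77 ± 0.19 from stage I to IV). The initiation factor Mtif3 rose on the TMM scale (log2 0.80 ± 0.22). Of 20 mitochondrial aminoacyl-tRNA synthetase and amidotransferase genes, 14 fell from stage I to IV and 4 from stage II to III. Of 27 assembly and rRNA modification factors, 13 fell and 3 rose from stage I to IV, and 7 fell and 1 rose from stage II to III. Rbfa, a small-subunit assembly factor, was that 1 (log2 0.82 ± 0.17). Among 13 genes of mitochondrial DNA upkeep and transcription 6 fell and 3 rose from stage I to IV. Over the mean of stages 2 translation factors, 6 synthetases, 4 assembly factors and 2 genes of mitochondrial DNA upkeep were lower after anti-IL5, and Mterf1a was higher. Of all genes 33.9% fell from stage I to IV and 18% from stage II to III of the isotype group, and 10.3% were lower over the mean of stages.

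Import and respiratory chain genes also fell from stage II to III. Of 30 import and chaperone genes, 19 fell from stage II to III in the isotype group (median -0.73) and 20 after anti-IL5 (-0.62). Over the mean of stages 15 of these 30 were lower after anti-IL5. Of 86 oxidative phosphorylation genes, 50 and 56 fell from stage II to III (medians -0.52 and -0.57), where 18% and 19.7% of all genes fell. Of these 86, 9 were lower after anti-IL5 over the mean of stages, a share near the 10.3% of all genes.

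Genes of the cytosolic ribosome already fell from stage I to II. Of 85 cytosolic ribosomal protein genes, 19 fell from stage I to II in the isotype group and 45 after anti-IL5, with medians of -0.50 and -0.57. The 78 mitochondrial genes had medians of -0.05 and -0.06 at that step. Of all genes 3.25% and 5.17% fell at that step. From stage II to III 50 and 17 cytosolic ribosomal protein genes fell, the latter near the 19.7% of all genes that fell after anti-IL5. Of 41 genes of cytosolic ribosome biogenesis, 17 and 26 fell from stage I to II, and 33 were lower after anti-IL5 over the mean of stages, with a median of -0.66. No test compares these lists with the 78 genes.

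**Figure D5:**
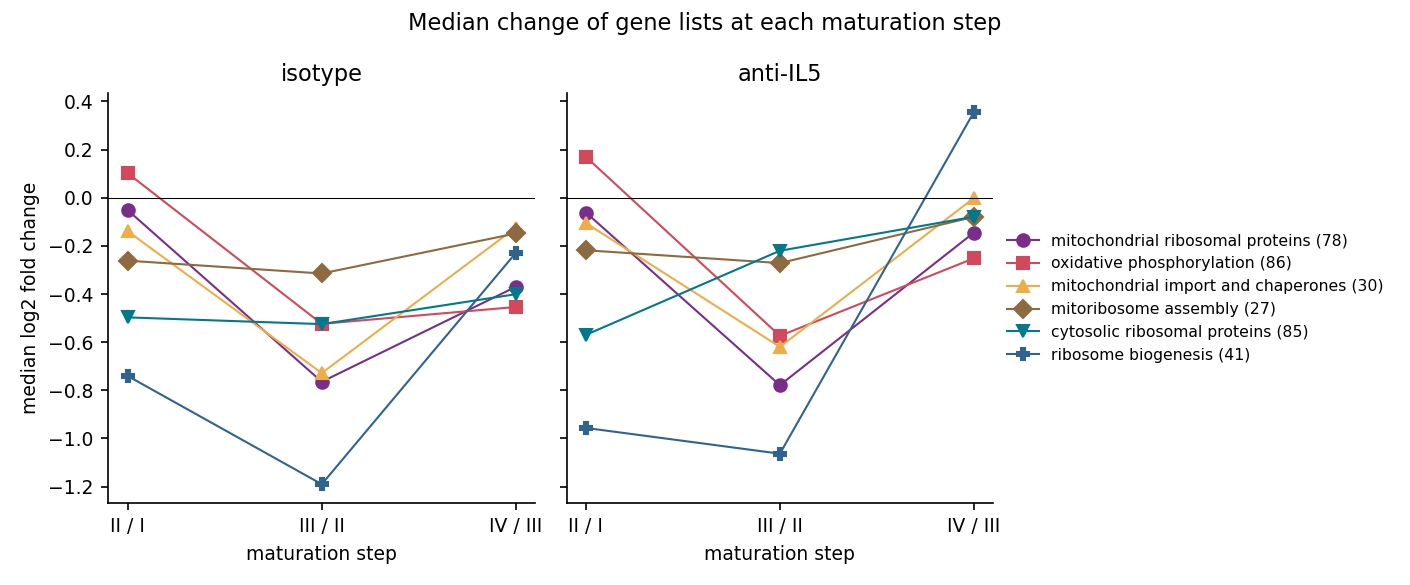
Median log2 fold change of the 78 mitochondrial ribosomal protein genes and of 5 comparison lists at each of the 3 maturation steps, with the isotype group in the left panel and the anti-IL5 group in the right. Cytosolic ribosomal protein and ribosome biogenesis genes are already below 0 from stage I to II, where the 78 genes have medians of -0.05 and -0.06.

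Cell-cycle genes fell over the same steps. All 22 listed S-phase genes fell from stage II to III in both antibody groups, and their summed level went from 5868 to 6518 CPM at isotype stage II to 1844 to 2224 at stage III and 449 to 485 at stage IV. At stage III the sums after anti-IL5 were 858 to 1098 CPM, below the isotype libraries, and 15 of the 22 genes were lower. Of 20 listed G2/M genes, 19 fell from stage II to III in the isotype group and 20 after anti-IL5.

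Markers of other cells moved too. Of 9 basophil and mast cell markers 7 had counts in some library, with Mcpt4 and Tpsb2 at 0 throughout. Their sum ran from 1247 to 1851 CPM at isotype stage I to 62 to 89 at stage IV, and at stage III it was 302 to 794 CPM with isotype antibody and 57 to 78.9 with anti-IL5. Neutrophil markers summed to a mean of 8017 CPM at isotype stage III and 11253 after anti-IL5. Most of this was Ngp (5190 and 5615) and Retnlg (1913 and 3593). Markers of T, NK and innate lymphoid cells, mostly Nkg7, summed to a mean of 1081 CPM at isotype stage I and 5.52 at stage IV. Monocyte and macrophage markers summed to 1520.2 CPM at isotype stage II and 2210.4 at stage III, mostly Ly6c2 (1338 and 1900). Csf1r, C1qa and C1qb also had higher means at stage III, while Ccr2, Cx3cr1, Irf8, F13a1, Ms4a6c and C1qc had lower ones. Haemoglobin genes were at 0. The part of cell division and of other cell types in the changes of the 78 genes was not tested.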

How the data were processed

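RNA was measured by RNA-seq in 22 libraries of sorted mouse eosinophils, made per the labels' protocols with SMART-Seq v4 (17 amplification cycles, no strand mark) and Nextera XT. The authors deposited raw counts per gene symbol. Per the submitters' processing notes STAR 2.6.1a, DESeq2 and build mm10 were used, with no role stated for DESeq2. How reads were assigned to genes, with which annotation and with what strand option, is not given in the sources used here. Samples were grouped by the titles' stage and antibody. Lines naming no gene (no feature, 12.7% to 22.1% of counts, and ambiguous, 1.86% to 2.39%) were left out.

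From the deposited counts, CPM were computed with TMM-scaled library sizes. All libraries entered 1 edgeR 4.0.16 fit (R 4.3.3) with 8 groups (filterByExpr, glmQLFit robust, glmQLFTest), with Benjamini-Hochberg adjustment over 12387 genes and a threshold of 0.05. The fit was tested on simulated data. Floors of 3 counts cover counting error alone, whereas each ± is derived from the quasi-likelihood F and includes the spread between libraries. Positions and exon overlaps come from GENCODE on GRCm38 and promoters from RefSeq. Alternatives were RLE size factors, library totals, no filter, DESeq2 1.42.0, limma-voom (limma 3.58.1), a fit of only the groups compared, a replicate block, and leaving out each library.

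The members and gene lists were chosen with earlier results of these data known. Named genes are the called members with the largest change (up to 8 per direction, at 10 CPM or more in the higher group), the 3 of smallest p where fewer than 3 were called, and 15 fixed by role. The classes by subunit and origin, and the low members Mrpl52 and Mrps6, were added after the values were seen, as were the members that no comparison called.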

Additional observations from a re-analysis of the deposited data

Results flagged for a closer look

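All 78 genes were searched at every pair of stages for anti-IL5 libraries lying wholly on opposite sides of the isotype libraries. Mrpl16 was the only member found. At stage II it was lower after anti-IL5, at 25.7 and 23.2 CPM against 35.9 and 35.2 (log2 -0.54 ± 0.25, edgeR adjusted p = 0.356). At stage IV it was higher, at 12.2, 12.3 and 15.2 CPM against 7.74, 9.32 and 10.8 (log2 0.51 ± 0.21, edgeR adjusted p = 0.428). Neither difference passed the threshold, and the difference between stages II and IV was not tested. Separation of the libraries was frequent at stage II, which has 2 libraries per group. There 31 members lay wholly lower after anti-IL5, 1 lay wholly higher and 46 overlapped. At stage IV 3 lay wholly lower, 2 wholly higher and 73 overlapped. The share of all genes with such opposite sides is not given here, so Mrpl16 is not shown to stand out.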

How the results depend on the processing

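Of the alternatives tried on single named genes, 3155 kept direction and side of the threshold, 142 lost a call, 32 gained one and 0 changed sign. Counts of called genes moved by more than 1.5 times as follows, and the cause was not tested. For anti-IL5 at stage I (2 genes) no filter gave 1 and a fit of only the groups compared 4. At stage II (0) library totals and DESeq2 gave 1 each. At stage III (7) library totals gave 11, limma-voom 4 and only the groups compared 2. From stage I to II with isotype (1) RLE gave 3, totals 4, no filter 0, DESeq2 4, limma-voom 5 and only the groups compared 0. After anti-IL5 (4) the same step gave 11 with totals, 1 with no filter, 8 with DESeq2, 7 with limma-voom and 1 with only the groups compared. From stage III to IV after anti-IL5 (14) no filter, limma-voom and only the groups compared gave 9 each. For the difference of effects between stages III and IV (0) DESeq2 gave 1.

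Leaving out 1 library at a time gave 0 to 2 called genes for anti-IL5 at stage I, 0 to 1 at stage II, 2 to 9 at stage III, 0 to 1 at stage IV and 14 to 26 over the mean of stages. The differences of effects gave 0 to 0, 0 to 0 and 0 to 1. In the isotype group the counts ran from 0 to 2 (stage I to II), 29 to 57 (II to III), 19 to 31 (III to IV) and 69 to 72 (I to IV), and after anti-IL5 from 1 to 5, 31 to 60, 7 to 15 and 57 to 64. Where this left stage II with 1 library, that library was assumed to vary like the other groups.

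With a replicate block 1 gene passed for anti-IL5 at stage II and 2 fell from stage I to II with isotype antibody, and a block within treatment gave 1 gene (Mrps28) for the difference between stages III and IV. The block gave 26 genes over the mean of stages and 9 at stage III, and moved no other count by over 1.5 times. Either block took the stage I to II call of Mrpl16 after anti-IL5 over the threshold (edgeR adjusted p = 0.0705 and 0.0704), and the block within treatment that of Mrpl38 with isotype antibody (0.0521). Same-numbered libraries of the other antibody correlated at 0.0127 to 0.338 in their deviations, 2 of 11 pairs over 0.1. Those 2 are the stage II pairs, where 2 libraries per group deviate as mirror images, so they are 1 value given 2 times. Same-numbered libraries of the same antibody at other stages correlated at 0.0229 to 0.208, 16 of 30 over 0.1. Not every pair exceeded 0.1 and the labels do not say what equal numbers mark, so the main fit treated all libraries as independent. Its p-values therefore leave out any spread shared by libraries of equal number. All same-numbered pairs correlated positively. Their mean was 0.0983 across antibodies and 0.105 across stages, against -0.0540 and -0.0525 for pairs with other numbers. Because deviations within a group balance out, a positive value with 1 library of another group lowers the values with its other libraries. The means for other numbers are therefore not separate evidence. Whether equal numbers share animals or batches was not tested. As a hint from the data, 22 of 22 libraries correlated best with their own number, which largely restates these same correlations. Depth limits genes near the floor of 0.222 to 0.411 CPM, and 2 libraries per group limit stage II.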
